A study of Mus musculus with 8 samples.

Results

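The 41 homologous recombination and Fanconi anemia repair genes described here were taken by gene name from a table of 54532 genes, and a row was found for every name. They comprise 7 checkpoint kinases and their activators, 5 genes of DNA end binding and resection, 5 of the BRCA1-BRCA2 group, 5 recombination paralogs, 3 helpers of annealing and strand exchange, 5 genes of junction processing, 9 of the Fanconi core with its ubiquitin-conjugating enzyme, and the 2 subunits of the Fanconi ID complex. Bulk RNA-seq gave their RNA levels in 4 retinal samples of *Six3-Cre+; Mettl3 floxed/floxed* mice (*Mettl3*-CKO) and 4 of controls at postnatal day 7. *Mettl3* encodes the catalytic subunit of the complex that writes m6A, a methyl mark on adenosines of RNA. *Six3-Cre* acts in retinal progenitor cells (RPCs) from embryonic stages, and the study describes an efficient knockout in the central retina, whereas the samples are labelled retina. The study describes littermate controls in other assays, whereas its RNA-seq methods name only control pups. The genotype of these controls was not given in the sources used here. The labels do not say whether each sample came from 1 animal, so p-values measure the spread between these samples only. The comparison asked whether the RNAs of these genes differed between *Mettl3*-CKO and control retinas, and whether they did so by more than *Pcna* and *Mcm2*, a pair of genes expressed in dividing cells.

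Homologous recombination repairs a broken or stalled chromosome by copying the sister chromatid: the break is resected to single-stranded DNA, BRCA2 and the recombination paralogs prepare that DNA for strand exchange, and the joined molecules are later resolved. ATM and ATR are kinases that sense breaks and stalled forks and halt the cell cycle through CHEK2 and CHEK1. The Fanconi pathway acts on crosslinks between DNA strands: a core ubiquitin ligase marks FANCD2 and FANCI, and repair then uses recombination proteins. Many of these genes are transcribed mainly in S and G2 phase of dividing cells, which in the developing retina are RPCs, whereas rods have left the cell cycle.

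The depth of the 8 samples was 16227095 to 20281517 counts, at which 3 counts corresponded to at most 0.185 CPM, the count scaled to library size. *Mettl3* stood at 21.1, 29.6, 21.3 and 24.3 CPM in *Mettl3*-CKO retinas, against 33.8, 32.5, 29.4 and 29.3 CPM in the controls. The *Mettl3*-CKO sample of 29.6 CPM overlapped with the controls, and the difference did not pass the test (0.771-fold, 95% interval 0.646 to 0.920, edgeR adjusted p = 0.0602). Counts were summed over the whole gene, so exons outside the deleted part were included. Summed retinal progenitor markers stood at 2550 to 3484 CPM in *Mettl3*-CKO and at 1880 to 2588 CPM in control samples. Summed rod markers stood at 1298 to 2382 CPM against 2529 to 3774 CPM, without overlap, and 6 of 8 rod markers were lower in *Mettl3*-CKO retinas. Summed lens markers reached 2670 CPM in control 4 and 59.0 CPM in control 1, whereas control 2 (9.74 CPM) and control 3 (6.56 CPM) lay within the 6.09 to 17.3 CPM of the *Mettl3*-CKO samples. Of 10 lens markers 6 were tested and 4 were called lower in *Mettl3*-CKO retinas, in none of them with groups apart. Of 7 tested vascular markers 6 were lower as well, and red blood cell markers summed to 4.29 to 7.18 CPM in *Mettl3*-CKO and 13.9 to 26.3 CPM in control samples, with 2 of 3 tested markers lower. *Cryaa*, *Crybb2*, *Crygs* and *Lim2*, lens genes, each had 0 counts in at least 1 *Mettl3*-CKO sample. Control 1 also had the lowest sum of proliferation genes (2028 CPM), the highest sum of rod markers (3774 CPM) and the highest mitochondrial share (2.38%). The part of these differences in the changes of the members was not tested.

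All 41 members had enough counts to be tested, and 12 were higher and 1 was lower in *Mettl3*-CKO retinas in edgeR's quasi-likelihood test at a Benjamini-Hochberg adjusted p under 0.05. Of all 17998 genes tested, 6.49% were higher and 4.05% lower by the same rule. The members that rose were the checkpoint genes *Topbp1* and *Chek1*, the resection genes *Rbbp8* and *Exo1*, the BRCA genes *Brca1*, *Brip1* and *Brca2*, the paralog *Xrcc2*, the strand exchange helpers *Rad54l* and *Rad54b*, and the junction genes *Eme1* and *Gen1*. The member that fell was the nuclease gene *Mus81*. In bulk samples, more cells that express a gene and more of its RNA per cell cannot be told apart. In 18 members all 4 *Mettl3*-CKO samples lay above all 4 controls, and in 1 member all lay below, against 9.77% and 7.58% of all genes tested. The median log2 fold change was 0.29 over the members and -0.01 over all genes tested, and 34 of the 41 members had a positive value. Summed over the members, the level was 1519, 1515, 1362 and 1332 CPM in *Mettl3*-CKO retinas, against 1025, 1177, 1156 and 1175 CPM in the controls. The sums did not overlap, and control 1 had the lowest.

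**Figure D1:**
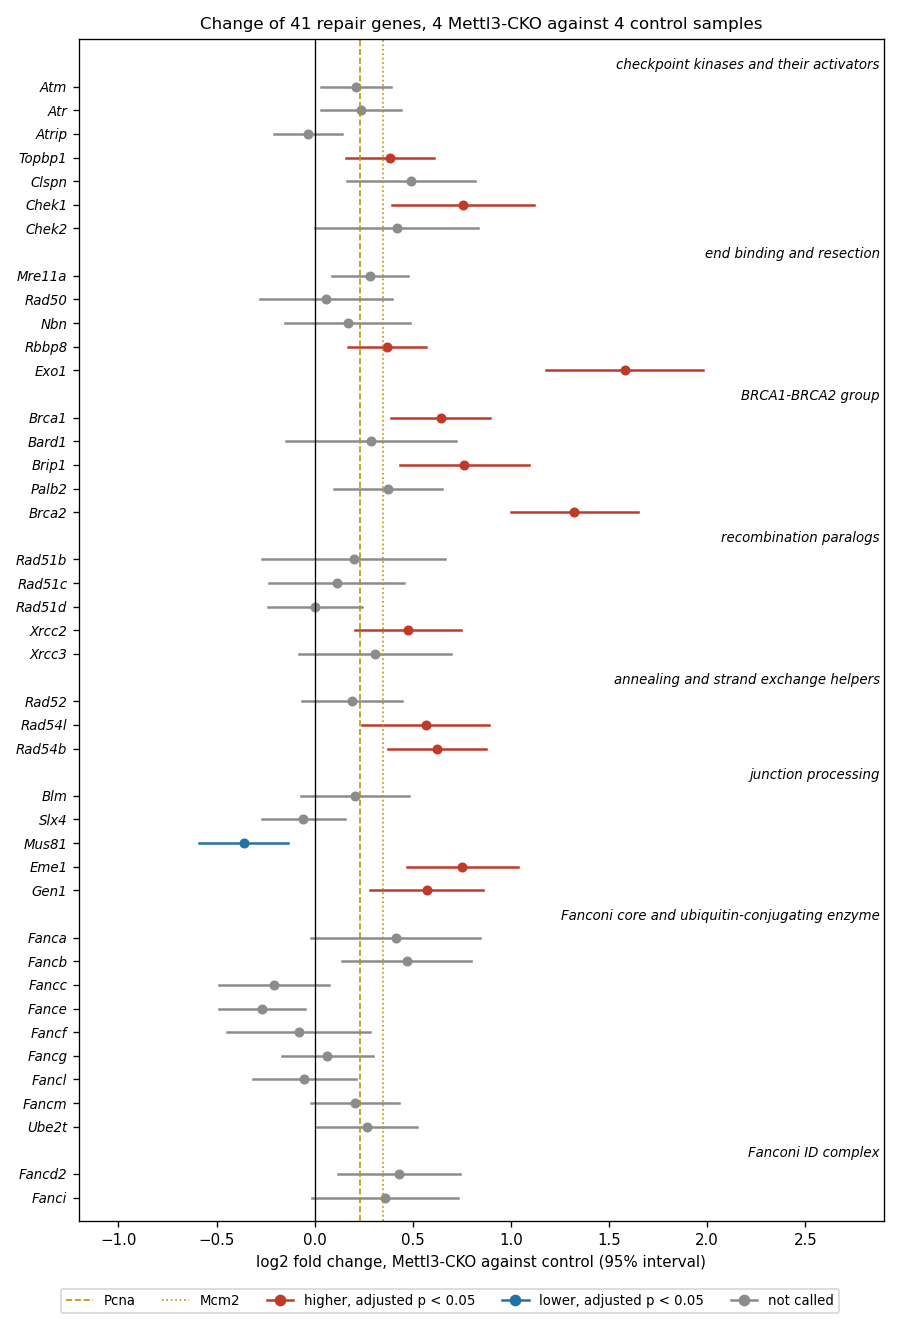
Log2 fold change of the 41 members between 4 *Mettl3*-CKO and 4 control samples (x axis) with 95% intervals, ordered by role, with the changes of *Pcna* and *Mcm2* as vertical lines. *Exo1* (1.58) and *Brca2* (1.32) lie far to the right of both lines, and *Mus81* (-0.36) is the only member called lower.

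The count of members called higher depended on which samples were used. It was 6 without *Mettl3*-CKO 1, the sample with the highest values of *Exo1*, *Brca1*, *Brip1* and *Brca2*, and 15 without control 1. It was 8 without control 4, the sample with the most lens RNA, and 8 without *Mettl3*-CKO 2. The share of all genes called higher moved as well, from 6.49% with all samples to 2.78% without *Mettl3*-CKO 1 and 10.3% without control 1. That share was 4.58% without control 4 and 4.84% without *Mettl3*-CKO 2. *Exo1*, *Brca1*, *Brip1*, *Brca2*, *Rad54b* and *Eme1* were called in all 8 fits that left out 1 sample, and the same 6 members passed an adjusted p under 0.01. *Chek1* was lost without *Mettl3*-CKO 1 only, *Gen1* without *Mettl3*-CKO 1 or control 2, and *Topbp1* without *Mettl3*-CKO 1, 2 or 3 or control 4. *Rbbp8* and *Rad54l* were lost without *Mettl3*-CKO 1, 2 or 3 or control 3 or 4. *Xrcc2* was lost without *Mettl3*-CKO 1 or 2 or control 2, 3 or 4. *Mus81* was lost in all 8 such fits. With DESeq2, 16 members were higher, the added ones being *Clspn*, *Mre11a*, *Fancb* and *Fancd2*. The share of all genes called higher by DESeq2 was 8.35%.

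Promoter sequences from RefSeq (GRCm38.p6) were found for 33 of the 41 members, and no entry was held for *Exo1*, *Fancd2*, *Nbn*, *Rad50*, *Rad51d*, *Rad54b*, *Rbbp8* and *Xrcc2*. Words of E2F sites, which are bound by factors of S-phase transcription, were searched on both strands as TTTCCCGC, TTTCGCGC, TTTGCCGC or TTTGGCGC in the 300 bases around each start (250 before and 50 after it). They were present in 7 of 33 members (21.2%) and in 4.40% of the 11988 tested genes with a promoter entry, and in 2 of the 8 members with an entry that rose. The CCAAT box was present in 20 of 33 members (60.6%) against 42.2% of those genes, and in 3 of the 8 that rose (37.5%) against 17 of the 25 not called higher (68.0%). Words of the cell cycle homology region (TTTGAA or TTCGAA) were present in 5 of 33 members (15.2%) against 16.0%. The 250 bases before the start are shown for the 2 risen members with an E2F word, *Brca2* and *Topbp1*, for *Brip1* with 3 CCAAT boxes, and for *Fancg*, which holds the same E2F word as *Brca2* and whose RNA stood at 1.05-fold. Capitals mark the words found, which are written as their complement where they lie on the opposite strand. The stretches are at chr5:150522371-150522620 (*Brca2*, plus strand), chr9:103305077-103305326 (*Topbp1*, plus), chr11:86201194-86201443 (*Brip1*, minus) and chr4:43010302-43010551 (*Fancg*, minus).
Brca2: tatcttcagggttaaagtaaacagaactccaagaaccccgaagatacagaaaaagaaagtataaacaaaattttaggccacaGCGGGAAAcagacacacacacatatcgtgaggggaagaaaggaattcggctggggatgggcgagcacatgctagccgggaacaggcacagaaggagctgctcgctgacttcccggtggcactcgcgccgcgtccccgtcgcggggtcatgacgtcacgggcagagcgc
Topbp1: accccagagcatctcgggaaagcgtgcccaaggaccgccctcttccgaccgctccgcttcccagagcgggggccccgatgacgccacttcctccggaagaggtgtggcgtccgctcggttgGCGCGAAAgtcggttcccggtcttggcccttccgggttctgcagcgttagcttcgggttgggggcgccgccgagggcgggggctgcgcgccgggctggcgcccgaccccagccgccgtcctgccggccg
Brip1: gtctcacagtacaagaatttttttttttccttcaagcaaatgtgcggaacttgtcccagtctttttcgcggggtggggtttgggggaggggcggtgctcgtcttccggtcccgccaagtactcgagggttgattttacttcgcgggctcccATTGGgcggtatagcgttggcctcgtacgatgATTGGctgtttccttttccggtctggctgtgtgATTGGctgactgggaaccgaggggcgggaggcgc
Fancg: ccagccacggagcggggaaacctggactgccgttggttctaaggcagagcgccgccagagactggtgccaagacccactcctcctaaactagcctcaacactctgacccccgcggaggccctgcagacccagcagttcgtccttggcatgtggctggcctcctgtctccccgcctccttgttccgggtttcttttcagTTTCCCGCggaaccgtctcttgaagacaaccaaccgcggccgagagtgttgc
The E2F word ended 161 bases before the RefSeq start in *Brca2*, 122 bases before it in *Topbp1* and 45 bases before it in *Fancg*. In *Topbp1* and *Fancg* the gene as counted begins within the printed stretch, at chr9:103305215 and chr4:43010506. The word of *Fancg* thus lies inside the gene as counted, and that of *Topbp1* just before it. Of the 7 members with an E2F word, *Bard1*, *Chek2*, *Clspn*, *Fancg* and *Rad51c* did not pass the test. A match is a string of letters and does not show that a factor was bound.

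Among the 7 checkpoint genes 2 rose, and the group's median log2 fold change was 0.38. By the same test 6.49% of all genes rose, and the group was not tested against that share. *Topbp1* (ENSMUSG00000032555, chr9:103305215-103350428), whose protein activates ATR at single-stranded DNA, stood at 181, 202, 182 and 162 CPM in *Mettl3*-CKO and at 117, 156, 152 and 132 CPM in control retinas. Every *Mettl3*-CKO sample was above every control (1.30-fold, 95% interval 1.12 to 1.52, adjusted p = 0.0339). *Chek1* (ENSMUSG00000032113, chr9:36708482-36727065), the kinase that ATR activates, stood at 20.5, 22.2, 15.7 and 16.6 CPM against 8.08, 13.6, 10.5 and 12.2 CPM. Its groups did not overlap either, and control 1 was the lowest sample (1.69-fold, 1.31 to 2.17, adjusted p = 0.0144). *Clspn*, encoding the adaptor claspin that brings CHEK1 to ATR, missed the threshold with 59.2, 58.6, 54.0 and 56.0 CPM against 26.9, 40.0, 49.9 and 45.4 CPM (1.41-fold, 1.12 to 1.76, adjusted p = 0.0551). Its groups stood apart, and the call was made without control 1 or without control 3. It was also made in DESeq2, in voom and without a filter on low counts. The apical kinases were close to each other, with *Atm* at 1.16-fold (1.02 to 1.31, adjusted p = 0.129) and *Atr* at 1.18-fold (1.02 to 1.35, adjusted p = 0.138). *Atrip*, encoding the partner of ATR, stood at 0.976-fold (0.865 to 1.1). *Chek2*, encoding the kinase downstream of ATM, stood at 1.34-fold, but its samples overlapped (1.0 to 1.78, adjusted p = 0.199).

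*Exo1* (ENSMUSG00000039748, chr1:175880581-175913489) encodes an exonuclease of long-range resection and mismatch repair, and it had the largest fold change of the 41 members. It stood at 61.5, 49.6, 43.8 and 38.0 CPM in *Mettl3*-CKO retinas and at 11.3, 14.3, 20.5 and 18.4 CPM in controls. The lowest *Mettl3*-CKO sample was thus above the highest control, and the mean rose from 16.1 ± 4.11 to 48.2 ± 10.1 CPM (SD, n = 4 each). The change was 2.99-fold (95% interval 2.27 to 3.94, adjusted p = 0.000451), and leaving out 1 sample kept the log2 value between 1.44 and 1.72. *Rbbp8* (ENSMUSG00000041238), whose protein CtIP starts resection, stood at 48.0, 48.3, 48.2 and 40.4 CPM against 37.9, 37.3, 35.1 and 32.8 CPM. *Mettl3*-CKO 4 was the lowest of its group and still above the controls (1.29-fold, 1.13 to 1.48, adjusted p = 0.0235). The genes of the MRN complex, which binds broken ends, did not pass the test over all 8 samples. *Mre11a*, its nuclease, stood at 1.22-fold with groups that did not overlap (1.06 to 1.39, adjusted p = 0.0624), and it was called without control 1 (adjusted p = 0.0402) or *Mettl3*-CKO 4 (adjusted p = 0.0480). *Nbn*, which recruits ATM, stood at 1.12-fold (0.900 to 1.40), and without control 1 its log2 change went from 0.17 to 0.34 and was called (adjusted p = 0.0371). *Rad50*, which tethers the ends, stood at 1.04-fold (0.826 to 1.31). *Exo1* thus changed by more than any of the 3 MRN genes, with intervals that did not overlap theirs.

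Of the 5 genes of the BRCA1-BRCA2 group 3 rose, where 6.49% of all genes tested did. So small a group was not tested against that share. *Brca2* (ENSMUSG00000041147, chr5:150522630-150570329), a central mediator of recombination, stood at 113, 87.3, 71.9 and 76.7 CPM in *Mettl3*-CKO retinas and at 29.1, 35.4, 33.0 and 41.9 CPM in controls. The groups were far apart, with *Mettl3*-CKO 1 as the highest sample (2.50-fold, 95% interval 2.0 to 3.13, adjusted p = 0.000385). *Brca1* (ENSMUSG00000017146, chr11:101488764-101551955), which promotes resection and the recruitment of BRCA2, stood at 72.4, 70.2, 62.5 and 55.1 CPM against 35.1, 43.7, 47.9 and 39.8 CPM. No sample overlapped (1.56-fold, 1.31 to 1.86, adjusted p = 0.00543). *Brip1* (ENSMUSG00000034329, chr11:86058138-86201193), encoding the helicase FANCJ that binds BRCA1, stood at 26.7, 21.2, 20.3 and 17.5 CPM against 10.1, 12.3, 15.1 and 13.1 CPM. Again the groups were apart (1.70-fold, 1.35 to 2.13, adjusted p = 0.00865). The direct partners of these proteins did not pass the test: *Palb2*, encoding the bridge between BRCA1 and BRCA2, stood at 1.30-fold with groups apart (1.07 to 1.57, adjusted p = 0.0802). *Bard1*, encoding the obligate partner of BRCA1, stood at 1.22-fold, and its groups overlapped (0.904 to 1.65, adjusted p = 0.421).

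The recombination paralogs, which assist strand exchange on single-stranded DNA, had 1 member that rose out of 5. Of all genes tested 6.49% rose, and 5 genes are too few to be told from that share. *Xrcc2* (ENSMUSG00000028933, chr5:25689812-25705825) stood at 30.1, 29.0, 22.4 and 22.1 CPM in *Mettl3*-CKO and at 20.4, 18.5, 16.9 and 18.6 CPM in control retinas. Its groups did not overlap, but *Mettl3*-CKO 3 and 4 lay close to the highest control (1.39-fold, 95% interval 1.15 to 1.68, adjusted p = 0.0291). The other 4 did not pass the test: *Rad51d* stood at 1.0-fold (0.848 to 1.18), *Rad51c* at 1.08-fold (0.852 to 1.37), *Rad51b* at 1.15-fold (0.830 to 1.59) and *Xrcc3* at 1.24-fold (0.946 to 1.62).

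Of the 3 helpers of annealing and strand exchange 2 rose, and both encode motor proteins of strand exchange. The share over all genes tested was 6.49%, and 3 genes were not tested against it. *Rad54l* (ENSMUSG00000028702, chr4:116094264-116123690) stood at 33.2, 32.5, 27.4 and 23.8 CPM in *Mettl3*-CKO and at 14.5, 23.0, 21.0 and 20.4 CPM in control retinas. The lowest *Mettl3*-CKO sample was just above the highest control (1.48-fold, 95% interval 1.18 to 1.85, adjusted p = 0.0302). *Rad54b* (ENSMUSG00000078773, chr4:11558922-11615805) stood at 21.7, 23.1, 18.6 and 19.7 CPM against 12.5, 13.9, 12.5 and 15.1 CPM. Its groups were apart (1.54-fold, 1.30 to 1.83, adjusted p = 0.00563). *Rad52*, which anneals single strands, stood at 1.14-fold (0.957 to 1.36, adjusted p = 0.349). The counts of these motor genes are uncertain in 1 respect, since 35.8% of the exon bases of *Rad54b* also belong to *Fsbp* on the same strand and 15.4% of those of *Rad54l* to *Lrrc41* on the opposite strand.

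The 5 genes of junction processing moved in different directions: 2 rose and 1 fell. Over all genes tested 6.49% rose and 4.05% fell, and the group was not tested against these shares. *Eme1* (ENSMUSG00000039055, chr11:94644996-94653964), encoding the non-catalytic partner of the MUS81 nuclease, stood at 18.9, 17.2, 14.3 and 15.1 CPM in *Mettl3*-CKO and at 8.29, 10.6, 9.65 and 10.4 CPM in control retinas. All *Mettl3*-CKO samples were above all controls (1.68-fold, 95% interval 1.38 to 2.05, adjusted p = 0.00430). *Mus81* (ENSMUSG00000024906, chr19:5482345-5488402), the catalytic subunit of the same nuclease, stood at 18.4, 20, 20.3 and 21.0 CPM against 30.0, 24.3, 23.9 and 24.2 CPM. All *Mettl3*-CKO samples were below all controls, with control 1 as the highest (0.779-fold, 0.666 to 0.911, adjusted p = 0.0446). This call was lost whenever 1 sample was left out (adjusted p = 0.0568 to 0.138) and in voom, without the filter and with a replicate block. *Gen1* (ENSMUSG00000051235, chr12:11238920-11265801), a Holliday junction resolvase, stood at 20.8, 20.4, 17.3 and 20.1 CPM against 10.8, 12.9, 13 and 16.4 CPM. The groups were apart, with control 4 nearest to the *Mettl3*-CKO samples (1.49-fold, 1.22 to 1.82, adjusted p = 0.0181). *Blm*, the helicase that dissolves double junctions, stood at 1.15-fold (0.953 to 1.40), and *Slx4*, the scaffold of several nucleases, at 0.961-fold (0.830 to 1.11). The 2 subunits of 1 nuclease thus had changes of opposite sign, and their intervals did not overlap.

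**Figure D2:**
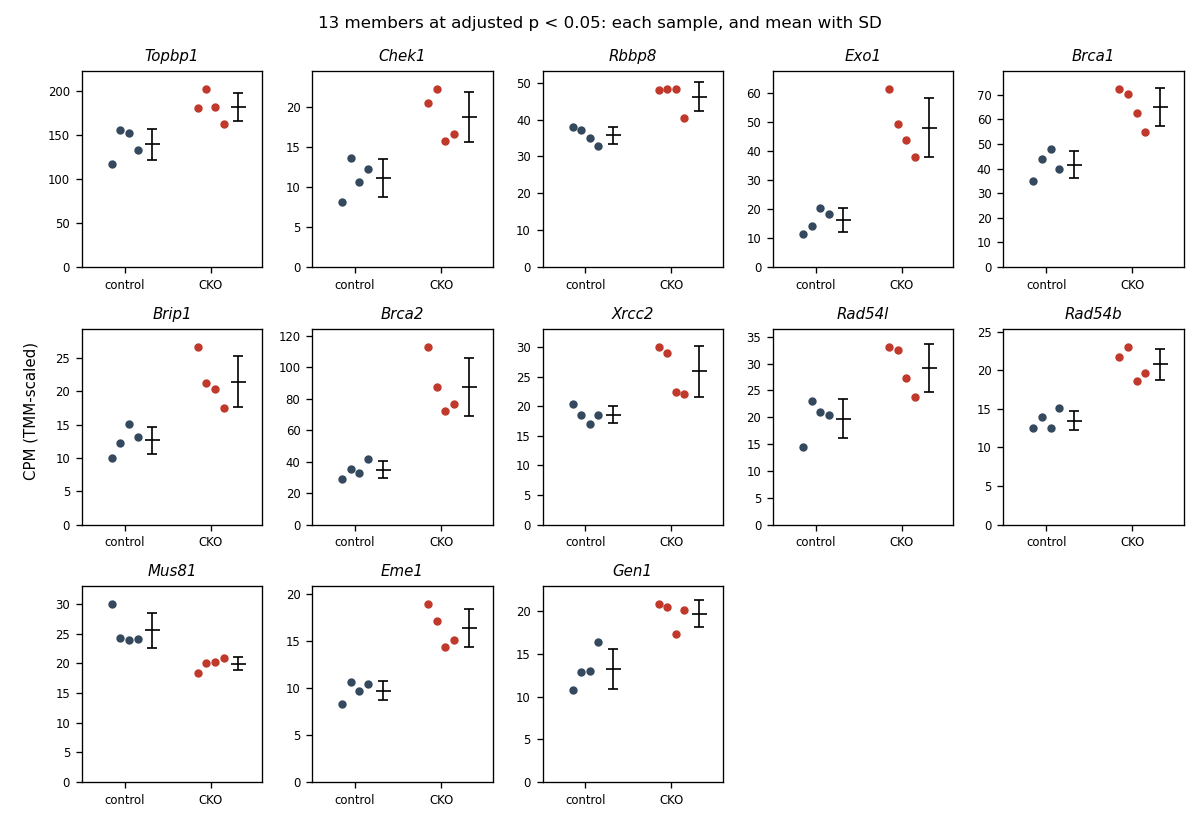
TMM-scaled CPM of the 13 members called in either direction, with 1 point per sample (4 control, 4 *Mettl3*-CKO) and the mean with its SD beside them. All y axes start at 0; in every panel the 2 groups are apart, and *Mus81* is the panel in which the controls are higher.

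None of the 9 Fanconi core genes, including the ubiquitin-conjugating enzyme *Ube2t*, was called by edgeR, and 0 of the 2 ID complex genes were. With 6.49% of all genes tested called higher, 0 calls among so few genes cannot be told from that share. At an unadjusted p under 0.05, 2 of the 9 were higher (*Fancb* and *Ube2t*) and *Fance* was lower, and DESeq2 called *Fancb* and *Fancd2* higher whereas voom called neither. *Fancb*, a scaffold subunit of the core ligase, stood at 9.46, 11.8, 10 and 9.33 CPM in *Mettl3*-CKO and at 5.67, 8.57, 7.34 and 7.80 CPM in control retinas. Its groups did not overlap (1.38-fold, 95% interval 1.1 to 1.74, adjusted p = 0.0680). *Fance*, which links the core to FANCD2, had the highest level per length of the 41 members and stood at 53.4, 49.5, 58.8 and 65.0 CPM against 74.2, 68.6, 68.3 and 62.1 CPM. Its groups overlapped through *Mettl3*-CKO 4 and control 4 (0.830-fold, 0.713 to 0.965, adjusted p = 0.114). *Fanca*, another core subunit and one with control 1 far below the other controls, stood at 45.4, 45.3, 37.0 and 32 CPM against 16.9, 34.7, 33.4 and 35.1 CPM (1.33-fold, 0.987 to 1.79, adjusted p = 0.225).

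The other core genes were not called. *Fancc* stood at 0.866-fold (0.714 to 1.05), *Fancf* at 0.945-fold (0.735 to 1.21), *Fancg* at 1.05-fold (0.891 to 1.23) and *Fancl*, the catalytic ligase subunit, at 0.965-fold (0.803 to 1.16). *Fancm*, a DNA translocase that anchors the core, stood at 1.15-fold (0.987 to 1.35), and *Ube2t* at 1.20-fold with groups apart (1.01 to 1.44, adjusted p = 0.179). The ubiquitinated pair was not called by edgeR over all 8 samples either, and its folds lay within the range of the core genes. *Fancd2* stood at 26.5, 27.0, 23.7 and 21.5 CPM against 14.3, 23.6, 17.2 and 18.3 CPM (1.35-fold, 1.09 to 1.67, adjusted p = 0.0762). *Fanci* stood at 22.7, 23.5, 18.0 and 16.7 CPM against 12.6, 21.6, 13.9 and 15.1 CPM (1.28-fold, 0.991 to 1.66, adjusted p = 0.221). In both genes control 2 overlapped with the *Mettl3*-CKO samples, and without it *Fancd2* was called (adjusted p = 0.0300). These intervals leave room for changes of up to 1.79-fold, so a difference of the size seen for *Exo1* or *Brca2* lay outside the interval of every core and ID gene. The summed level of the 9 core genes was 215 to 239 CPM in *Mettl3*-CKO and 202 to 225 CPM in control retinas.

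Divided by gene length (FPKM, the count scaled to total counts and kilobases of exon), the control means ranged from 0.788 for *Rad51b* to 21.3 for *Fance*, with a median of 3.43 over the 41 members. The highest level in each group belonged to *Topbp1* (12.4 ± 1.7 FPKM, SD, n = 4), *Nbn* (10.9 ± 2.5), *Brca1* (4.86 ± 0.69), *Xrcc3* (9.15 ± 2.8), *Rad54l* (2.55 ± 0.51), *Mus81* (7.12 ± 0.68), *Fance* (21.3 ± 1.2) and *Fanci* (2.73 ± 0.73). *Topbp1* and *Nbn* did not differ beyond their spread, nor did *Rad54l* and *Fanci*. The 2 members with the largest rises were not among the abundant ones in controls, with *Brca2* at 2.55 ± 0.43 FPKM and *Exo1* at 1.91 ± 0.50 FPKM. In *Mettl3*-CKO retinas they stood at 6.41 ± 1.4 and 5.73 ± 1.2 FPKM.

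The comparison with proliferation genes rested on *Pcna*, the sliding clamp of replication, and *Mcm2*, a subunit of the replicative helicase. *Pcna* stood at 251, 269, 303 and 229 CPM in *Mettl3*-CKO and at 205, 238, 231 and 221 CPM in control retinas. It did not pass the test (1.17-fold, 95% interval 1.02 to 1.35, edgeR adjusted p = 0.151), and *Mettl3*-CKO 4 lay among the controls. *Mcm2* stood at 145, 138, 141 and 114 CPM against 90.1, 111, 114 and 107 CPM (1.27-fold, 1.09 to 1.49, adjusted p = 0.0481). *Mcm2* was called, although *Mettl3*-CKO 4 and control 3 had nearly equal values. A second fit over all genes set the scale of each sample so that the mean log2 count of these 2 genes was equal in all samples. On that scale the median log2 change was -0.30 over all genes tested and 0.01 over the members, so changes are read against this shift.

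Relative to *Pcna* and *Mcm2*, 3 members were higher and 3 were lower, against 1.73% and 18.6% of all genes tested. *Exo1* stood at 32.2%, 25.7%, 21.2% and 23.5% of the geometric mean of *Pcna* and *Mcm2* in *Mettl3*-CKO and at 8.35%, 8.75%, 12.6% and 11.9% in control retinas. *Brca2* stood at 59.2%, 45.3%, 34.8% and 47.5% against 21.4%, 21.7%, 20.4% and 27.2%. In both genes the groups remained apart, with relative changes of 2.46-fold for *Exo1* (adjusted p = 1.25e-05) and 2.06-fold for *Brca2* (adjusted p = 0.000102). *Brip1* stood at 14.0%, 11%, 9.84% and 10.9% against 7.41%, 7.55%, 9.27% and 8.52%. Its groups were apart by little (1.39-fold, adjusted p = 0.0448). *Mus81* stood at 9.65%, 10.4%, 9.81% and 13% against 22.1%, 14.9%, 14.7% and 15.7% (0.636-fold, adjusted p = 0.00948). *Fancc* stood at 8.0%, 10.1%, 7.79% and 8.56% against 11.6%, 12%, 12.5% and 12.2% (0.711-fold, adjusted p = 0.0335). *Fance* stood at 28.0%, 25.7%, 28.4% and 40.2% against 54.6%, 42.1%, 42.1% and 40.3% (0.683-fold, adjusted p = 0.0185). The groups did not overlap in these 3 genes, but in *Fance* *Mettl3*-CKO 4 was nearly level with control 4. The share of members called lower was below the 18.6% of all genes tested, whose median log2 change on this scale was -0.30. On the usual scale *Fancc* (edgeR adjusted p = 0.356) and *Fance* (adjusted p = 0.114) were not called. Whether these 3 genes fell by more than the shift of all genes was not tested.

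**Figure D3:**
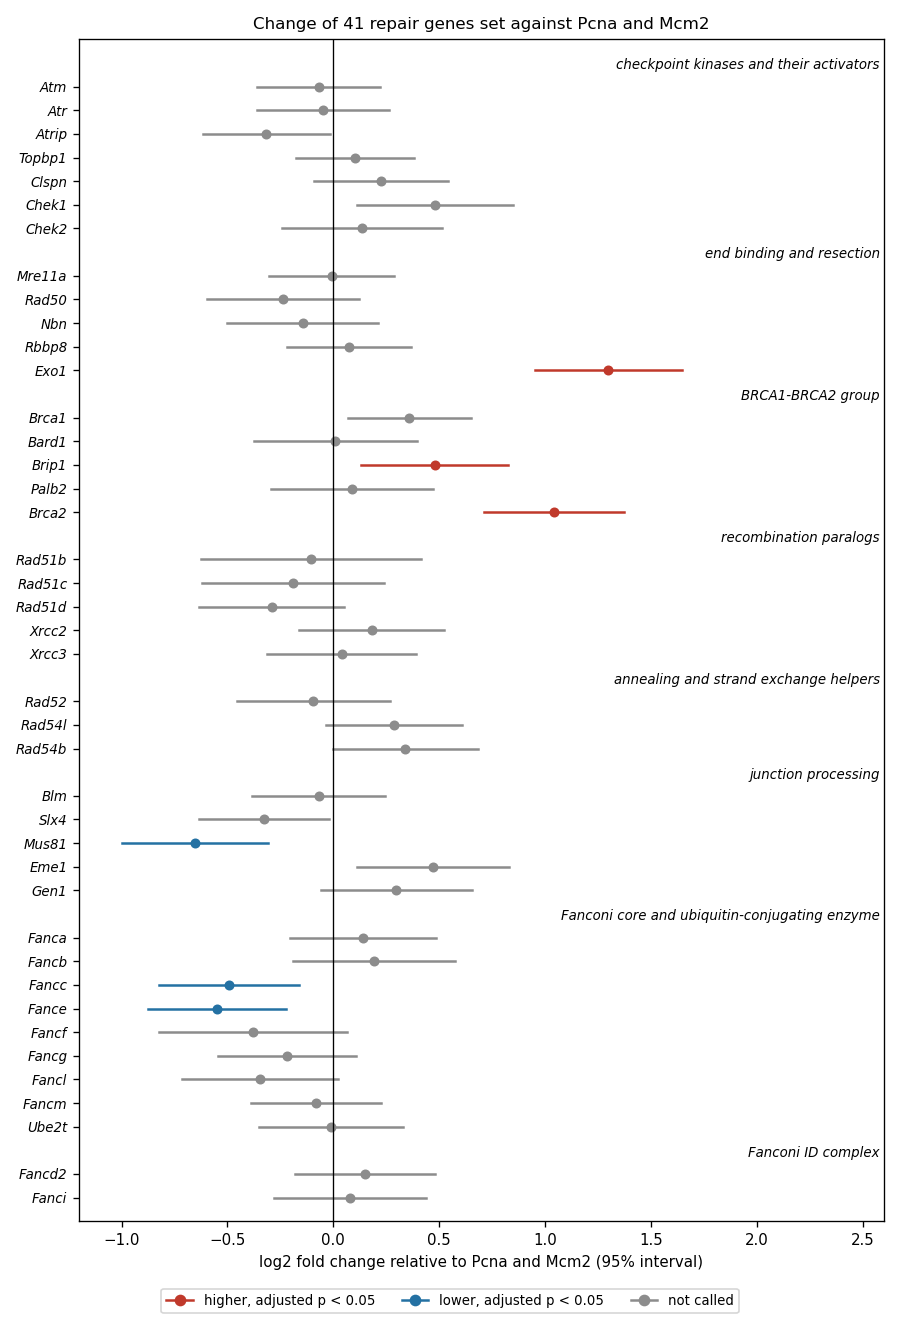
Log2 fold change of the 41 members after the scale was set by *Pcna* and *Mcm2* (x axis, 95% intervals). *Exo1* (1.30), *Brca2* (1.04) and *Brip1* (0.48) are called higher, *Mus81* (-0.65), *Fance* (-0.55) and *Fancc* (-0.49) lower, and the remaining 35 members are not called.

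The other 9 members that had risen on the usual scale were not called relative to *Pcna* and *Mcm2*. *Chek1* (1.40-fold, adjusted p = 0.0551), *Eme1* (1.39-fold, adjusted p = 0.0532) and *Brca1* (1.28-fold, adjusted p = 0.0662) missed the threshold by little. *Rad54b* (1.27-fold), *Gen1* (1.23-fold), *Rad54l* (1.22-fold), *Xrcc2* (1.13-fold), *Topbp1* (1.07-fold) and *Rbbp8* (1.05-fold) had adjusted p-values of 0.132 to 0.717. *Exo1* and *Brca2* were called in all 8 fits that left out 1 sample, *Mus81* in 6, *Fance* in 5, and *Fancc* and *Brip1* in 3 each. With *Pcna* alone as the reference 5 members were higher, and with *Mcm2* alone 2. Of all genes tested, 1.92% and 1.41% were higher in these fits. When the level of *Pcna* and *Mcm2* entered as a covariate beside the group, edgeR called 0 members in either direction. Few genes of any kind were called with the covariate, 0.311% of all genes tested higher and 0.00556% lower. In that fit 7 members were higher and 1 lower at an unadjusted p under 0.05, with adjusted p = 0.0783 for *Exo1* and 0.0568 for *Brca2*. DESeq2 with the same scale called 6 higher and 3 lower, against 1.89% and 23.4% of all genes.

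**Figure D4:**
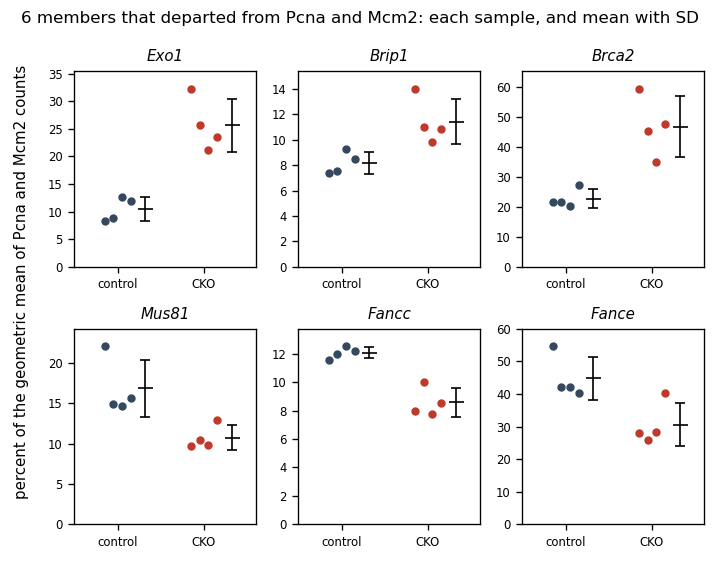
Level of the 6 members called relative to *Pcna* and *Mcm2*, as a percent of the geometric mean of these 2 genes in the same sample, with 1 point per sample and the mean with SD. *Exo1* averages 25.7% in *Mettl3*-CKO against 10.4% in control retinas, and *Fancc* 8.60% against 12.1%.

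The wider pathway was read from lists of genes outside the 41 members. Of all genes tested, 6.49% rose and 4.05% fell by the same test. Of 32 other recombination and Fanconi genes 7 rose, among them *Rmi1*, *Faap100*, *Usp1*, *Rpa2* and *Fignl1*. The change of *Fignl1*, encoding an ATPase of recombination, was close to that of *Exo1* (2.80-fold, adjusted p = 0.000321), and relative to *Pcna* and *Mcm2* it was called as well (adjusted p = 1.12e-05). *Eme2*, encoding the alternative partner of MUS81, fell to 0.589-fold (adjusted p = 0.00698), whereas *Eme1* rose. Of 20 other checkpoint genes 4 rose, *Etaa1*, *Tipin*, *Rif1* and *Rnf168*, by 1.23-fold to 1.44-fold. Of 14 end joining genes, whose pathway rejoins breaks without a template, *Lig4* rose (1.52-fold, adjusted p = 0.0287) and *Paxx* fell (0.643-fold, adjusted p = 0.00606). The summed level of end joining genes was 544 to 566 CPM in *Mettl3*-CKO and 554 to 566 CPM in control retinas. Of 17 proliferation genes 6 rose (*Mcm2*, *Mcm3*, *Mcm4*, *Mcm5*, *Mki67* and *Rrm2*), and their median log2 fold change of 0.35 was near that of the members (0.29). *Mki67*, a marker of cycling cells, rose 1.97-fold and was also higher relative to *Pcna* and *Mcm2* (log2 0.69, adjusted p = 0.00258). Summed proliferation genes stood at 2600 to 3357 CPM in *Mettl3*-CKO and at 2028 to 2457 CPM in control retinas, with *Mettl3*-CKO 4 lowest in its group. Of 9 retinal progenitor markers 3 rose, among them *Fgf15* and *Lhx2*, and *Fgf15* was higher relative to *Pcna* and *Mcm2* as well (log2 0.81, adjusted p = 0.00328). The part of these sums in the members' changes was not tested beyond the comparison with *Pcna* and *Mcm2*.

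A feature that the choice of genes did not use was exon length, which was looked at after the values were seen and was not tested. In protein-coding transcripts of GENCODE vM21, the longest exon had a median length of 2543 bases in the 12 members that rose, 1017 bases in the other 29 members and 1596 bases in 14285 tested genes. The 2 longest belonged to the 2 members with the largest rises. In *Exo1* it was the last exon (exon 15, chr1:175908430-175913489), 5060 bases long with 133 coding bases. In *Brca2* it was internal exon 11 (chr5:150538649-150543457), 4809 bases long and entirely coding. *Brca1* likewise has a long internal exon that is entirely coding (exon 10, chr11:101523325-101526639, 3315 bases). *Brip1* (3908 bases), *Gen1* (3657 bases) and *Xrcc2* (3017 bases) carry theirs as the last exon. Of the 8 members with an exon of at least 3000 bases 6 rose (75.0%), the exceptions being *Mre11a* and *Bard1*, against 6 of 33 members with shorter ones (18.2%). Over all tested genes the shares were 10.6% of 3174 and 6.38% of 11111. The length of 3000 bases was also chosen after the values were seen, and *Rad51c* (2843 bases), *Rad51d* (2325 bases) and *Slx4* (2186 bases) lie under it without a rise. Divided at the middle rank instead, 8 of the 21 members with the longer exons and 4 of the other 20 rose. *Eme1* (801 bases), *Topbp1* (647 bases) and *Rad54l* (598 bases) rose without a long exon. The longest exon of *Rad54b* (2068 bases) is the stretch shared with *Fsbp*.

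**Figure D5:**
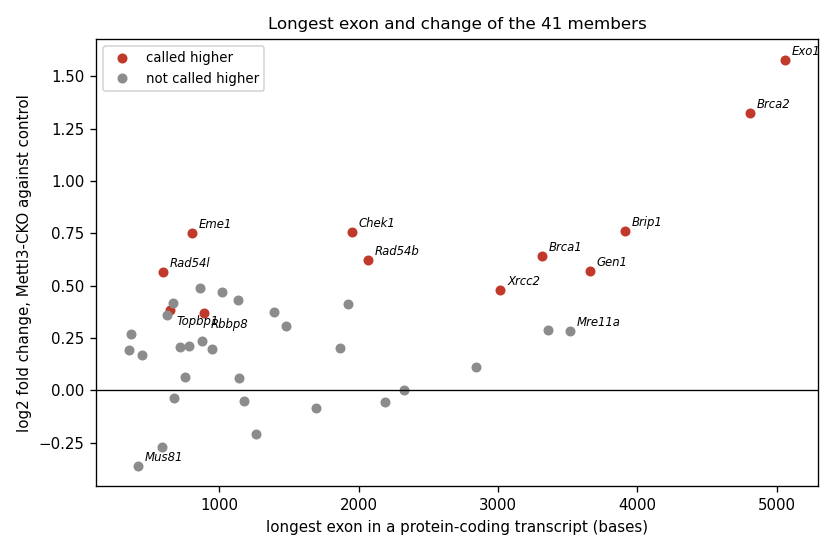
Longest exon of each of the 41 members in protein-coding transcripts (x axis, bases) against the log2 fold change between *Mettl3*-CKO and control retinas (y axis). *Exo1* (5060 bases, 1.58) and *Brca2* (4809 bases, 1.32) lie at the upper right, whereas *Mre11a* (3517 bases, 0.28) has a long exon and was not called.

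Reads of 19 of the 41 members could be shared with a gene that overlaps their exons, and the strand setting of the counting was not given in the sources used here. Beside *Rad54b* and *Rad54l*, the largest overlaps were *Fancc* with *Gm16133* (16.4% of exon bases), *Atrip* with *Trex1* (16.0%), *Fanci* with *Polg* (16.0%), *Fancf* with *Gas2* (15%), *Fancl* with *Vrk2* (13.7%) and *Fanca* with *Zfp276* (10.5%). *Eme1* shares 8.0% with *Lrrc59* and 2.72% with *Mrpl27*, and *Mus81* 4.85% with *Efemp2*. The mean count of *Lrrc59* was 2582 and that of *Eme1* 238, and the effect of this overlap was not tested. For *Exo1*, *Brca1*, *Brip1*, *Chek1*, *Topbp1*, *Gen1* and *Xrcc2* no such overlap was found, and for *Brca2* it covered 0.300% of exon bases.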

How the data were processed

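RNA of 8 retinal samples at postnatal day 7 (4 *Mettl3*-CKO, 4 control) was sequenced; the study's methods give the preceding day, and the labels were followed. Per the labels and the study's methods, the authors extracted RNA with TRIzol, mapped filtered reads to GRCm38 (mm10) with HISAT2 and deposited raw counts per gene from featureCounts, with CASAVA also named in the submitters' processing notes. The annotation release and the strand setting were not given in the sources used here. Gene lengths and coordinates of 40 of the 41 members equal those of GENCODE vM21, *Rbbp8* being the exception.

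The quasi-likelihood test of edgeR 4.0.16 in R 4.3.3 (filterByExpr, TMM) was fitted to the counts with group alone, with Benjamini-Hochberg adjustment over 17998 genes and a threshold of 0.05. Intervals are 95%. The biological coefficient of variation was 15.0%, and totals ranged from 16227095 to 20281517. CPM is TMM-scaled, and FPKM was computed from counts, gene lengths and total counts. For the comparison relative to *Pcna* and *Mcm2*, an offset equalised their mean log2 count in all samples, and its own error is not included. DESeq2 1.42.0, limma 3.58.1 (voom), other scalings, filters and thresholds, a replicate block and fits without 1 sample were run as alternatives. Same-numbered samples did not all deviate together (r = -0.11, 0.22, -0.11 and 0.25). *Mettl3*-CKO 2 and 4 were closest to the control of their own number, whereas 1 and 3 were closest to control 2 and control 1. The numbers were therefore not taken as pairs. The lowest chi-square between samples of a group was 5.54 per gene, so each counted as 1 sample. No column was left out (0 unused).

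The 41 members and all lists were chosen with earlier results of these data known. Members that were called are given in every sample, and the others by fold and interval, with values for the most abundant of each role and for genes with a central or overlapping position. Other genes are named where they are *Mettl3*, *Pcna*, *Mcm2* or a called gene of a list, and some genes that the rule also names are not reported here. Motif words and exon lengths are descriptions.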

Additional observations from a re-analysis of the deposited data

Results flagged for a closer look

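Within each group of 4 samples, the highest or lowest log2 CPM of each member and of *Mettl3*, *Pcna* and *Mcm2* was compared with the others by Dixon's test at the 95% level. Of 88 sets of 4 values 4 passed it, and chance gives about 4.4. *Rbbp8* was low in *Mettl3*-CKO 4 at 5.34, where the other 3 samples of its group lay at 5.59 to 5.60. *Mus81* was high in control 1 at 4.91, above 4.58 to 4.61 in the other controls. The fall of *Mus81* no longer passed the test without this sample, nor without any other 1 sample. *Fanca* was low in control 1 at 4.08, below 5.06 to 5.14 in the other controls. *Ube2t* was high in *Mettl3*-CKO 2 at 4.25, above 3.99 to 4.03. Control 1 was also the sample with the lowest sum of proliferation genes and the highest sum of rod markers, and the cause of these single values was not tested.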

How the results depend on the processing

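The 12 members called higher were called in all 7 settings that changed the tool, the scaling, the filter or the block. At an adjusted p under 0.01, 6 were higher and 0 lower, and with a 1.5-fold minimum 7 and 0. Over all genes tested, the shares were 2.44% and 0.817% at the first threshold, and 3.27% and 1.88% at the second. The call of *Mus81* was lost in voom, without the filter and with the replicate block (0 lower in each, with 2 members lower at an unadjusted p under 0.05 in each and 1 lower in DESeq2). With the replicate block 13 members were higher, *Fancb* being added, against 6.66% of all genes tested, although the numbers were not taken as pairs. Leaving out 1 sample gave 6 (without *Mettl3*-CKO 1) to 15 higher members (without control 1) and 0 lower ones, with 1 to 3 lower at an unadjusted p under 0.05. Over all genes tested, 2.78% were higher and 1.01% lower without *Mettl3*-CKO 1, and 10.3% and 7.07% without control 1. Genes called higher in the other pathway and proliferation lists, 18 in all, were 28 with DESeq2, 4 at 0.01, 3 with the 1.5-fold minimum and 6 to 25 without 1 sample, the lowest again without *Mettl3*-CKO 1.

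*Mettl3* passed the test in DESeq2 (log2 -0.38, adjusted p = 0.0269) and without *Mettl3*-CKO 2 (-0.49), against -0.31 without *Mettl3*-CKO 1. Relative to *Pcna* and *Mcm2*, 5 members were higher with *Pcna* alone or the replicate block, 6 with DESeq2 and 0 with the covariate. Of all genes tested, 1.92% were higher with *Pcna* alone, 2.33% with the block, 1.89% with DESeq2 and 0.311% with the covariate. Lower were 6 with the whole proliferation list, 1 at 0.01, 0 with the covariate and 0 (without *Mettl3*-CKO 1 or 3) to 5 (without *Mettl3*-CKO 4) without 1 sample. Of all genes tested, 39.4% were lower with the proliferation list, 5.02% at 0.01 and 0.00556% with the covariate. Without *Mettl3*-CKO 1, 3 or 4 the shares lower were 4.43%, 2.8% and 31%. The causes were not tested.

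Members near no change turned sign: *Rad51d* with DESeq2 (log2 -0.0025), with RLE scaling (-0.0026) and without 1 sample (-0.031 to 0.054), *Atrip* (-0.053 to 0.0028), *Rad50* (-0.091 to 0.15) and *Fancl* (-0.12 to 0.019) without 1 sample. With 4 samples a group, fold changes near 1.3 lay on either side of the threshold, as *Topbp1* and *Palb2* did, and a member that was not called is not shown to be unchanged.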
